A study of Homo sapiens with 6 samples.

Results

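YAP1, WWTR1, the 4 TEAD transcription factor genes, LATS2, AMOTL2, MYOF and ANKRD1 were followed in VCaP cells, a human prostate cancer line with the TMPRSS2-ERG fusion, after silencing of NEDD9. These genes of the Hippo pathway were taken by gene symbol, and all 10 were found among the 58735 genes of the count table. The shNEDD9 cells carried a stably delivered short hairpin RNA against NEDD9, a scaffold protein of focal adhesions, and the shNTC cells carried a hairpin with no target. Both grew in DMEM with 10% FBS, and each group had 3 libraries, which the design calls biological triplicates. How many hairpins were used, and whether the lines were pools or clones, is not stated in the labels, so an effect of NEDD9 and one of a hairpin or line cannot be told apart. Nothing in the labels says that the 3 libraries of a group came from separately infected cells, so the p-values rest on the library-to-library spread, which may be technical.

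The Hippo pathway restrains growth through a chain of kinases. STK3 and STK4, held by the scaffold SAV1, activate LATS1 and LATS2 with their cofactors MOB1A and MOB1B, and the LATS kinases phosphorylate the coactivators YAP1 and TAZ (the product of WWTR1), which are then kept out of the nucleus or degraded. YAP1 and TAZ do not bind DNA themselves and act through the TEAD factors on genes such as ANKRD1, CTGF and CYR61. LATS2 and AMOTL2 are both inhibitors of YAP1 and TEAD target genes, which makes them feedback genes. RNA counts show the transcripts of these genes and not the phosphorylation or location of the proteins.

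Library totals ran from 5956486 to 9902002 counts in shNEDD9 and from 3217276 to 7492244 in shNTC, and the detection floor of 3 counts equalled 0.303 to 0.932 CPM (counts scaled to a common library size). NEDD9 itself was 2.62-fold lower, at 137 ± 1.03 CPM in shNEDD9 and 355.7 ± 14.3 CPM in shNTC (SD, n = 3 each). All 10 VCaP markers were expressed, the lowest group mean being 156 CPM of KRT18. The summed level of 7 fibroblast markers was 47.5 to 54.6 CPM in shNEDD9 and 26.8 to 34.6 CPM in shNTC, most of it LUM. The 2 tested markers went opposite ways. LUM was called higher (log2 fold change 1.24, edgeR adjusted p = 3.18e-42) and COL1A1 lower (-0.55, edgeR adjusted p = 0.0106). COL1A1 had 4.63 ± 0.64 CPM in shNEDD9 and 7.23 ± 2.25 CPM in shNTC (SD, n = 3 each). COL1A2, COL3A1, DCN, PDGFRA and PDGFRB were too low to be tested. PDGFRA had no count in shNEDD9. The 5 muscle markers summed to 0.504 to 2.16 CPM in shNEDD9 and 0.941 to 1.57 CPM in shNTC, with DES and MYL2 at 0 in all libraries. The 5 endothelial markers summed to 1.61 to 2.35 CPM in shNEDD9 and 1.34 to 3.14 CPM in shNTC, with CDH5 at 0 throughout. The 5 leukocyte markers summed to 4.36 to 5.14 CPM in shNEDD9 and 3.09 to 5.03 CPM in shNTC, nearly all of it CD14, which was not called, with CD3E and CD68 among those at 0 throughout. The part of other cell types in the results below was not tested.

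All 10 members passed the filter on low counts and were tested. ANKRD1 passed through the shNTC libraries alone. At an adjusted p under 0.05 (edgeR quasi-likelihood test, adjusted over all 13958 tested genes), 3 members rose, 5 fell and 2 were not called. Among all tested genes 71.4% were called, 35.5% as higher and 35.9% as lower, so a call by itself was common in these cells. The groups did not overlap for 8 of the 10 members, against 71.8% of all tested genes. The sizes set the members apart from each other more than the calls did. Of the 10 members, 2 were called and changed at least 2-fold, MYOF and ANKRD1, both downwards. In either direction that share was near the 16.9% of all tested genes (7.67% higher and 9.22% lower). The remaining members stayed within 2-fold. The median log2 fold change of the members was -0.18, and that of all tested genes was 0.00.

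**Figure D1:**
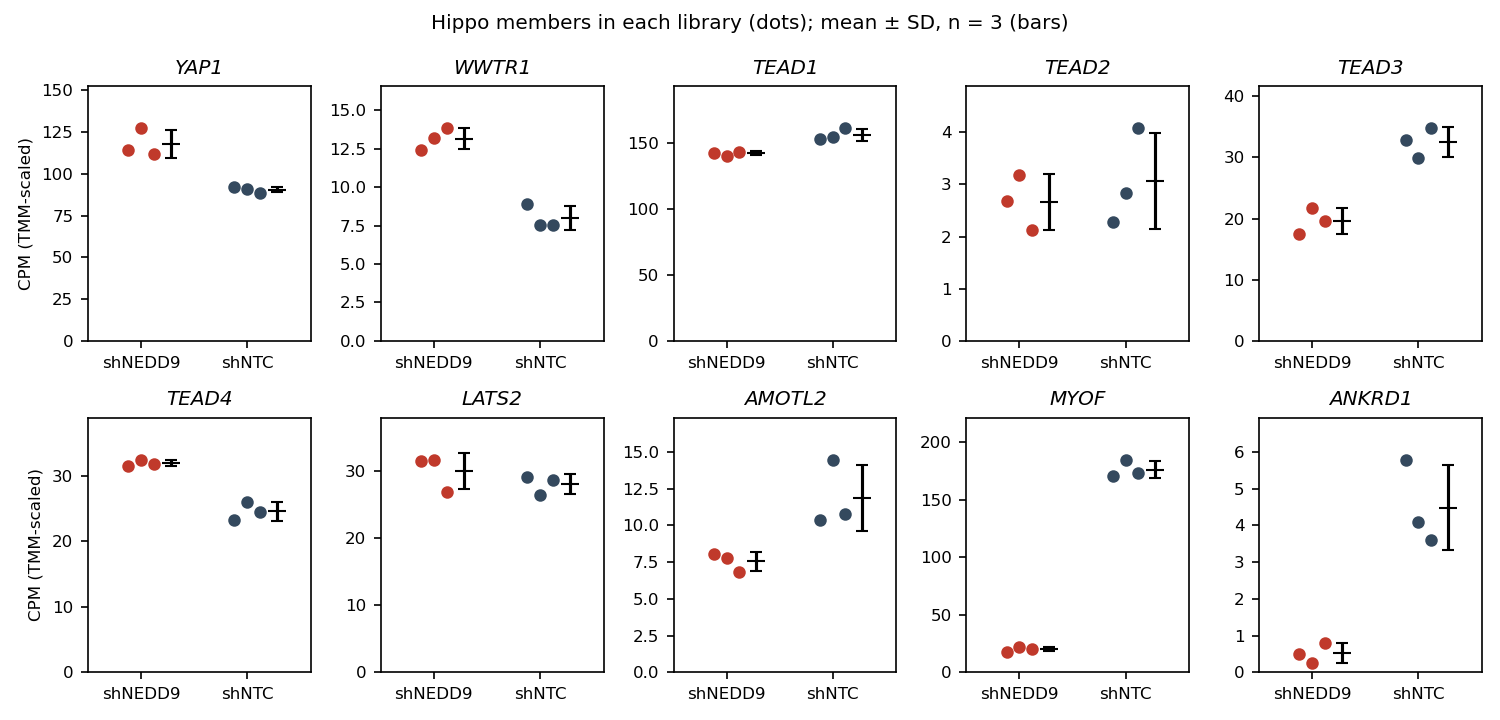
TMM-scaled CPM of each member in the 3 shNEDD9 libraries (left of each panel) and the 3 shNTC libraries (right); dots are libraries, and the bars beside them give the mean ± SD (n = 3). MYOF lies between 18.1 and 21.7 CPM in shNEDD9 and between 171 and 184 CPM in shNTC, whereas the TEAD2 and LATS2 dots of the groups overlap.

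Both coactivator genes were higher in shNEDD9. YAP1 (ENSG00000137693, GRCh38 chromosome 11, 102110461 to 102233423, plus strand) had 114, 127 and 112 CPM in shNEDD9 libraries 1 to 3, against 92.0, 90.8 and 88.7 CPM in shNTC libraries 1 to 3. Every shNEDD9 library lay above every shNTC library, although the shNEDD9 values were more spread. The mean was 118 ± 8.17 CPM in shNEDD9 and 90.5 ± 1.64 CPM in shNTC (SD, n = 3 each), a 1.30-fold increase (log2 fold change 0.38, SE 0.05, edgeR adjusted p = 1.28e-13). In bulk RNA, fewer cells with a transcript and less of it per cell cannot be told apart, here and in all that follows.

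WWTR1 (ENSG00000018408, chromosome 3, 149517235 to 149736714, minus strand), the TAZ gene, had 12.4, 13.2 and 13.8 CPM in shNEDD9, against 8.88, 7.54 and 7.51 CPM in shNTC. The groups were well apart, and WWTR1 rose 1.63-fold (log2 fold change 0.71, SE 0.15, edgeR adjusted p = 4.57e-06). WWTR1 shares 795 exon bases with the antisense gene WWTR1-AS1, which had 7 counts over all libraries beside 453 of WWTR1.

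For levels between genes, CPM was divided by gene length in kilobases (RPKM). YAP1 was the main coactivator transcript, at 18.7 ± 1.30 RPKM in shNEDD9 and 14.4 ± 0.26 RPKM in shNTC, while WWTR1 stood at 1.56 ± 0.08 RPKM in shNEDD9 and 0.948 ± 0.09 RPKM in shNTC (SD, n = 3 each). YAP1 held 92.5%, 92.8% and 91.6% of the summed YAP1 and WWTR1 level in shNEDD9 and 93.3%, 94.1% and 94.0% in shNTC. That share was 1.56 percentage points lower in shNEDD9, with no overlap of the groups (exact permutation test, two-sided, p = 0.1, the smallest that 3 against 3 libraries allow). The summed level was 20.3 ± 1.30 RPKM in shNEDD9 and 15.3 ± 0.34 RPKM in shNTC (SD, n = 3 each; exact permutation p = 0.1).

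The TEAD genes, which encode the DNA-binding partners of YAP1 and TAZ, went in different directions. TEAD4 (ENSG00000197905, chromosome 12, 2959330 to 3040673, plus strand) had 31.6, 32.4 and 31.8 CPM in shNEDD9, against 23.3, 26.1 and 24.4 CPM in shNTC. It was higher in every shNEDD9 library, 1.32-fold on average (log2 fold change 0.40, SE 0.09, edgeR adjusted p = 3.34e-05). TEAD3 (ENSG00000007866, chromosome 6, 35473597 to 35497076, minus strand) had 17.5, 21.7 and 19.7 CPM in shNEDD9, against 32.8, 29.8 and 34.7 CPM in shNTC. It was 1.66-fold lower, the largest change within the family, with a wide gap between the groups (log2 fold change -0.74, SE 0.09, edgeR adjusted p = 3.48e-14).

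TEAD1 (ENSG00000187079, chromosome 11, 12674591 to 12944483, plus strand) had 143, 141 and 143 CPM in shNEDD9, against 153, 154 and 161 CPM in shNTC. The groups did not overlap, but the decrease was only 1.10-fold (log2 fold change -0.13, SE 0.04, edgeR adjusted p = 0.00234). After thinning of every library to the lowest total the call of TEAD1 was lost (edgeR adjusted p = 0.0551, range over all alternatives 0.00244 to 0.0551). TEAD2 (ENSG00000074219, chromosome 19, 49340595 to 49362457, minus strand) was the least abundant, with 2.69, 3.18 and 2.12 CPM in shNEDD9, against 2.29, 2.83 and 4.07 CPM in shNTC. The groups overlapped and TEAD2 was not called (log2 fold change -0.23, SE 0.28, edgeR adjusted p = 0.477). Its 62 counts in shNEDD9 and 52 in shNTC allow a ratio of 0.588 to 1.27 (95% exact binomial interval, counting error only). At this depth the counts thus fit a decrease, no change or an increase within that interval. Without shNTC replicate 3 its log2 fold change was 0.090. TEAD2 shares 319 exon bases with CD37 on the opposite strand, which had 5 counts over all libraries beside 114 of TEAD2.

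Per length of all exons, TEAD1 and TEAD4 were level in shNEDD9, at 13.8 ± 0.15 and 14.0 ± 0.20 RPKM. They were ahead of TEAD3 at 6.44 ± 0.70 and TEAD2 at 0.893 ± 0.18 RPKM (SD, n = 3). In shNTC the order was TEAD1 at 15.2 ± 0.42, then TEAD4 at 10.8 ± 0.62 and TEAD3 at 10.7 ± 0.81 RPKM, which did not differ beyond their spread, and TEAD2 at 1.03 ± 0.31 RPKM (SD, n = 3). TEAD4 thus made up 40.4%, 39.5% and 39.8% of the summed TEAD level in shNEDD9, against 27.9%, 30.8% and 27.4% in shNTC. TEAD3 made up 16.7%, 19.7% and 18.4% in shNEDD9, against 29.4%, 26.3% and 29.1% in shNTC. The groups overlapped for neither share, and the difference of each had a two-sided exact permutation p of 0.1, the smallest possible (means of 39.9% in shNEDD9 and 28.7% in shNTC for TEAD4, and of 18.3% in shNEDD9 and 28.3% in shNTC for TEAD3; p = 0.2 after Benjamini-Hochberg adjustment over the 4 TEAD genes).

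The shares of TEAD1 and TEAD2 overlapped between the groups, at a mean of 39.3% and 2.53% in shNEDD9 and 40.3% and 2.71% in shNTC (two-sided exact permutation p = 0.3 for TEAD1 and 0.8 for TEAD2). These shares depend on the length used, since the exons of TEAD1 hold long untranslated parts. Per coding length TEAD1 had 68.8 ± 1.33% in shNEDD9 and 68.7 ± 0.35% in shNTC, TEAD4 18.6 ± 0.13% in shNEDD9 and 13.0 ± 0.86% in shNTC, and TEAD3 11.1 ± 1.10% in shNEDD9 and 16.8 ± 0.97% in shNTC (SD, n = 3 each). The direction of TEAD3 and of TEAD4 was the same by both lengths. The summed TEAD level was 35.2 ± 0.87 RPKM in shNEDD9 and 37.7 ± 1.33 RPKM in shNTC (SD, n = 3 each; exact permutation p = 0.1).

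**Figure D2:**
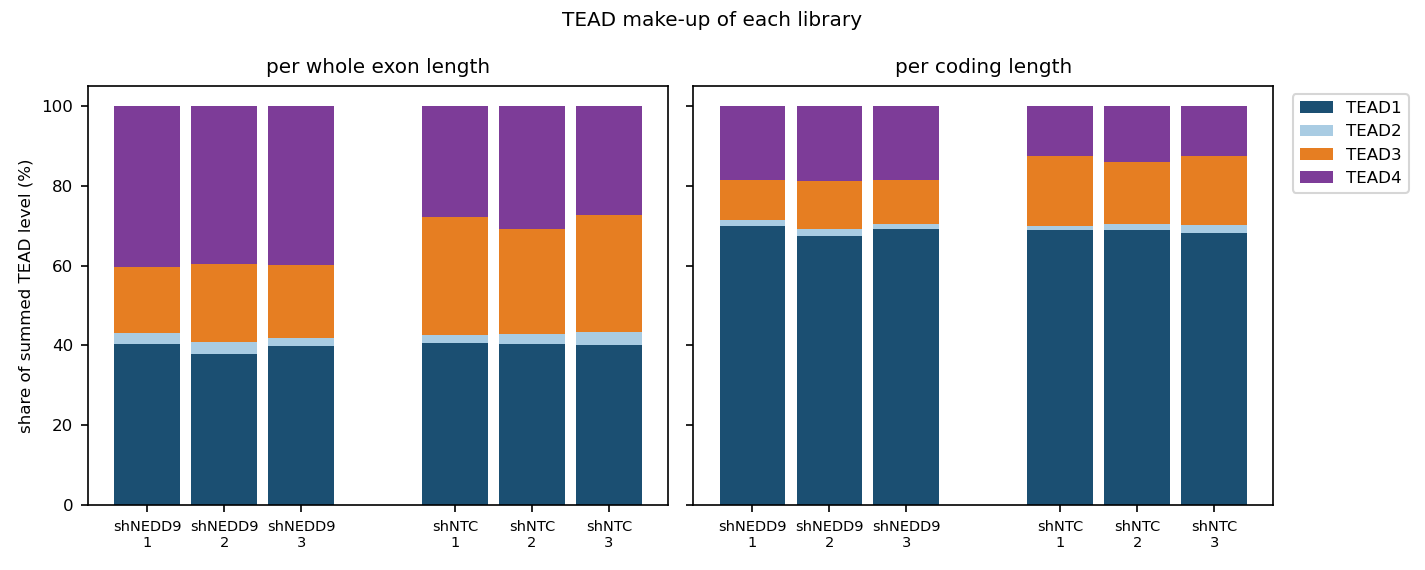
Share (%) of TEAD1, TEAD2, TEAD3 and TEAD4 in the summed TEAD level of each library, the 3 shNEDD9 libraries left of the 3 shNTC libraries, per length of all exons (left panel) and per coding length (right panel). By both lengths TEAD4 takes a larger and TEAD3 a smaller share in every shNEDD9 library, and the size of the TEAD1 share depends on the length used.

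The 4 members that serve as readouts of TEAD activity did not move together. MYOF, a ferlin gene of membrane repair (ENSG00000138119, chromosome 10, 93306429 to 93482317, minus strand), had 18.1, 21.7 and 20.2 CPM in shNEDD9, against 171, 184 and 173 CPM in shNTC. It was 8.64-fold lower and ranked 133 of the 13958 tested genes by size of the log2 fold change (-3.11, SE 0.06, edgeR adjusted p below 1e-300). Per length of all exons MYOF stood at 2.36 ± 0.21 RPKM in shNEDD9 and at 20.8 ± 0.87 RPKM in shNTC (SD, n = 3 each).

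ANKRD1, an ankyrin repeat gene of stretched muscle that is widely used as a YAP1 readout (ENSG00000148677, chromosome 10, 90912096 to 90921276, minus strand), was scarce in both groups. It had 3, 2 and 8 counts in shNEDD9 libraries 1 to 3, or 0.504, 0.254 and 0.807 CPM, against 43, 13 and 23 counts in shNTC libraries 1 to 3, or 5.78, 4.08 and 3.60 CPM. The groups did not overlap, and libraries 1 and 2 of shNEDD9 were at or under the floor of 3 counts. The fitted decrease was 8.23-fold (log2 fold change -3.04, SE 0.36, edgeR adjusted p = 6.59e-17, rank 141 of 13958). From the 13 counts in shNEDD9 and 79 in shNTC the decrease lay between 4.63-fold and 16.4-fold (95% exact binomial interval, counting error only).

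AMOTL2, which encodes an angiomotin-like protein that binds and retains YAP1 (ENSG00000114019, chromosome 3, 134355874 to 134375479, minus strand), had 8.06, 7.76 and 6.86 CPM in shNEDD9, against 10.4, 14.5 and 10.8 CPM in shNTC. Library 2 of shNTC was the highest, and all shNTC values lay above all shNEDD9 values. AMOTL2 fell 1.52-fold (log2 fold change -0.60, SE 0.16, edgeR adjusted p = 0.000252). LATS2, the kinase gene (ENSG00000150457, chromosome 13, 20973032 to 21061547, minus strand), had 31.6, 31.7 and 26.9 CPM in shNEDD9, against 29.2, 26.4 and 28.6 CPM in shNTC. The groups overlapped and LATS2 was not called (log2 fold change 0.06, SE 0.09, edgeR adjusted p = 0.541). Its 704 counts in shNEDD9 and 484 in shNTC allow a ratio of 0.938 to 1.19 (95% exact binomial interval, counting error only).

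**Figure D3:**
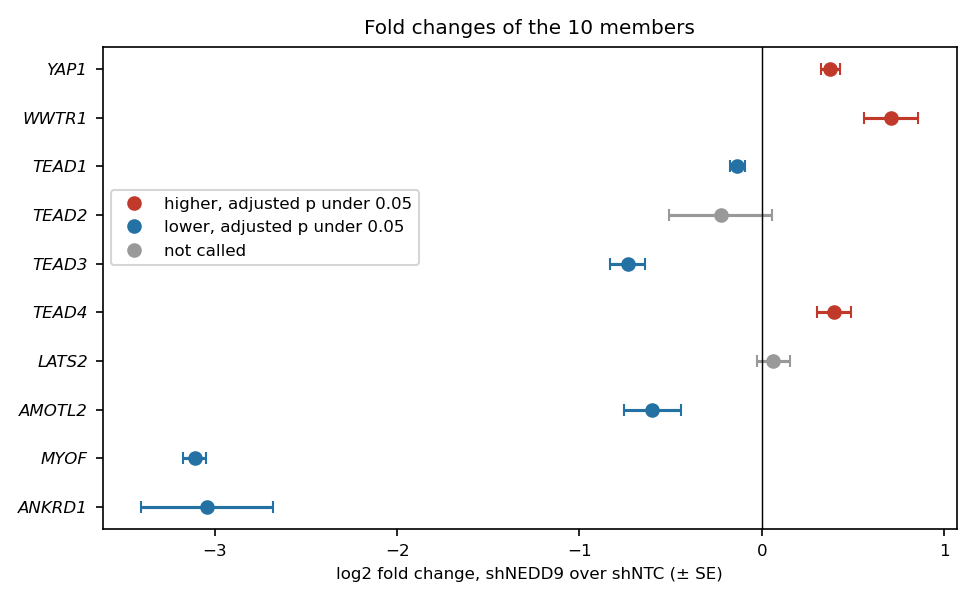
Log2 fold change of each member, shNEDD9 over shNTC, with its approximate SE (bars); red marks members called higher, blue those called lower and grey those not called by edgeR at an adjusted p under 0.05. MYOF at -3.11 and ANKRD1 at -3.04 stand far left of the other members, which lie between -0.74 and 0.71.

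The promoters of these target genes are given as a description, and a link between promoter sequence and RNA change was not tested. Below are RefSeq promoters (GRCh38.p14) of 300 bases, from 250 before to 50 after the start, for the 4 target members and for CTGF, a TEAD target gene described further on. Capitals mark GGAATG or its reverse complement CATTCC, the core letters of the TEAD motif, searched on both strands.
ANKRD1, chr10:90921038-90921337, minus strand: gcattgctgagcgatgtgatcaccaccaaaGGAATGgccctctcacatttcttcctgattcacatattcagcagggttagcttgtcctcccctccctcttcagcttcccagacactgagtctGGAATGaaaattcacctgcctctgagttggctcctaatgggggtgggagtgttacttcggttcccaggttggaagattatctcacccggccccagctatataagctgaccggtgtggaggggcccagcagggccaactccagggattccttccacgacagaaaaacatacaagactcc
MYOF, chr10:93482285-93482584, minus strand: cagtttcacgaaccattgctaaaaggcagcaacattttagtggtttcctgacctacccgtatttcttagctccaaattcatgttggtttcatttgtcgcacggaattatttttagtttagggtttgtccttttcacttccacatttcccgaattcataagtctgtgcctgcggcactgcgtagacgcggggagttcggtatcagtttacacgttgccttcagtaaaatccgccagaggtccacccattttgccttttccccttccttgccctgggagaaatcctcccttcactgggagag
AMOTL2, chr3:134374398-134374697, minus strand: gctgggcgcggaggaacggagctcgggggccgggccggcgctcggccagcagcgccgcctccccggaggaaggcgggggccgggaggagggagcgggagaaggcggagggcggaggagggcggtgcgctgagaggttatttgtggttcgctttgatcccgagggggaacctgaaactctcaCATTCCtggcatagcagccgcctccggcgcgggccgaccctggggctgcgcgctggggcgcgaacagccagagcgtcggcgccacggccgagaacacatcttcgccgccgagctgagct
LATS2, chr13:21061537-21061836, minus strand: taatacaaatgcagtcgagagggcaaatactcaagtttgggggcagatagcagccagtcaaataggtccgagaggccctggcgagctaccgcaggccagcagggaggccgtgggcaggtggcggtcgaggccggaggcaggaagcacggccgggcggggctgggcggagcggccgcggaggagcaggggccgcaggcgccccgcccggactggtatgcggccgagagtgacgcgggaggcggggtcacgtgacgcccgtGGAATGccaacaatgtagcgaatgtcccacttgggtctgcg
CTGF, chr6:131951323-131951622, minus strand: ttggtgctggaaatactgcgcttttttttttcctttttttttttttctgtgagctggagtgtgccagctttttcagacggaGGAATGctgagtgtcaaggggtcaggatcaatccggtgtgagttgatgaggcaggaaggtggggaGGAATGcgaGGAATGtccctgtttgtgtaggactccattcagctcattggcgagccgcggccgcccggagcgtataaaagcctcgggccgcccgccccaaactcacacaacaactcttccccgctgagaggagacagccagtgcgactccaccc

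ANKRD1 held 2 matches, whose first bases lay 220 and 128 before the start. CTGF held 3, at 169, 104 and 95 bases before it. AMOTL2 has 2 starts in the table; the printed one held 1 match on the opposite strand, 69 bases before it, and the other held none. LATS2 held 1, starting at base 10 after the start. No match stood in this window of MYOF. Among 35116 RefSeq promoters of this length, 14% held at least 1 match, 1.37% at least 2 and 0.128% at least 3. YAP1 also held 1 match, and WWTR1, TEAD2 and TEAD3 held none, so 4 of the 8 members with a promoter in the RefSeq table had one in any of their promoters, beside 16.7% of 27305 genes. The members with a match included one that rose (YAP1), some that fell (ANKRD1, AMOTL2) and one that was not called (LATS2). Of the further target genes described below, 12 had a promoter in the RefSeq table, and 6 (50%) of these held a match. Among them CTGF and TGFB2 were called lower, NUAK2, with 2 matches, was called higher, and PTPN14 was not called. AXL and FOXF2 were too low to be tested. IGFBP3, which was called lower, held no match. All tested genes with a promoter in the table were also split by matches. Of 129 genes with 2 or more, 41.1% were lower and 32.6% higher (median log2 fold change -0.06). Of 1461 genes with 1 match, 38.3% were lower and 34.2% higher (median -0.02). Of 9158 genes with none, 36.4% were lower and 37% higher (median 0.01).

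Of 18 further target genes of YAP1 and TAZ, 16 were tested, of which 4 (25%) were called higher and 7 (43.8%) lower, beside 35.5% higher and 35.9% lower among all tested genes. Their median on the log2 scale was -0.39, and that of all tested genes 0.00. CTGF and RBMS3 are among the 7 lower genes, and the count filter kept them through shNTC alone. The share called lower and the median therefore rest in part on that filter, and neither was computed without these genes. CTGF, a matricellular growth factor gene, had 4, 2 and 6 counts in shNEDD9, or 0.671, 0.254 and 0.605 CPM, against 26, 7 and 22 counts in shNTC, or 3.50, 2.20 and 3.44 CPM. The groups did not overlap, and the log2 fold change was -2.63 (SE 0.41, edgeR adjusted p = 1.25e-10). Like ANKRD1, CTGF passed the count filter through the shNTC libraries alone, as did RBMS3. Its close relative CYR61 went the other way, at 18.1, 19.5 and 18.7 CPM in shNEDD9, against 13.0, 15.1 and 11.1 CPM in shNTC (log2 fold change 0.56, SE 0.12, edgeR adjusted p = 8.62e-06). The call of CYR61 was lost after thinning (edgeR adjusted p = 0.161, range over all alternatives 4.57e-06 to 0.161). IGFBP3, which binds insulin-like growth factors, was the most abundant of the list, at 478 ± 12.2 CPM in shNEDD9 and 3597 ± 67.0 CPM in shNTC (SD, n = 3 each). RBMS3, which encodes an RNA-binding protein, was 3.23-fold lower (SE 0.32 on the log2 scale). GADD45A, a growth arrest and DNA damage gene, rose 2.74-fold, and NUAK2, a kinase gene, rose 2.72-fold (edgeR adjusted p = 1.69e-09 for NUAK2, the weaker of the pair).

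Upstream of the coactivators, decreases were the more frequent. Of 40 further genes of the kinase core and its upstream regulators, 39 were tested; 27 of them (69.2%) fell and 7 (17.9%) rose, and their median was -0.38 on the log2 scale. The 35.9% lower and 35.5% higher among all tested genes stand beside these shares. With all libraries thinned, 3 of them rose. PTPN14 was counted both here and among the target genes. In the core itself the kinase gene STK3 fell by 0.35 on the log2 scale (SE 0.06, edgeR adjusted p = 1.22e-07), and STK4 was not called (log2 fold change 0.09, SE 0.07, edgeR adjusted p = 0.23). LATS1 rose by 0.21 on the log2 scale (SE 0.06, edgeR adjusted p = 0.0013), as did the scaffold gene SAV1 by 0.21 (SE 0.09, edgeR adjusted p = 0.0239). Both calls were lost after thinning (edgeR adjusted p = 0.238 for LATS1, range over all alternatives 0.000262 to 0.238, and 0.0939 for SAV1, range over all alternatives 0.0106 to 0.0939). SAV1 was also not called with DESeq2 (adjusted p = 0.0741) and, in edgeR, without shNEDD9 replicate 1 (adjusted p = 0.0757), shNTC replicate 2 (adjusted p = 0.0545) or shNTC replicate 3 (adjusted p = 0.0592).

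The LATS cofactor genes were both lower. MOB1A fell to 78.5 ± 5.15 CPM in shNEDD9, against 107 ± 6.01 CPM in shNTC, and MOB1B to 27.4 ± 1.68 CPM in shNEDD9, against 47.6 ± 3.91 CPM in shNTC (SD, n = 3 each). NF2, which encodes the upstream activator merlin, had 72.2, 61.9 and 65.4 CPM in shNEDD9, against 95.2, 96.1 and 92.2 CPM in shNTC. For none of MOB1A, MOB1B and NF2 did the groups overlap, and the log2 fold changes were -0.45 (SE 0.05) for MOB1A, -0.81 (SE 0.08) for MOB1B and -0.51 (SE 0.06) for NF2 (edgeR adjusted p of 2.08e-17 for MOB1A, the weakest).

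All genes of the angiomotin family, to which AMOTL2 belongs, were lower in shNEDD9. AMOTL1 had 176, 175 and 186 CPM in shNEDD9, against 362, 356 and 369 CPM in shNTC, a 2.02-fold decrease (log2 fold change -1.01, SE 0.03, edgeR adjusted p = 2.52e-196). AMOT had 1.01, 4.20 and 4.34 CPM in shNEDD9, against 19.1, 22.0 and 21.1 CPM in shNTC. Library 1 of shNEDD9, with 6 counts of AMOT, lay well under the other two, and the decrease was 5.90-fold (log2 fold change -2.56, SE 0.16, edgeR adjusted p = 5.21e-56). The 1.52-fold decrease of AMOTL2 was smaller than both.

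The largest increase of the list was that of AJUBA, whose LIM-domain protein binds and restrains the LATS kinases. It had 149, 159 and 152 CPM in shNEDD9, against 7.40, 9.11 and 8.61 CPM in shNTC, and rose 18.7-fold (log2 fold change 4.23, SE 0.08, edgeR adjusted p below 1e-300). WTIP, another gene of the AJUBA family, went the opposite way, at 3.76 ± 0.67 CPM in shNEDD9 and 15.7 ± 0.81 CPM in shNTC (SD, n = 3 each, log2 fold change -2.08). LIMD1, also of that family, was lower as well (log2 fold change -0.63, SE 0.05, edgeR adjusted p = 5.9e-31). RASSF2, a scaffold gene that binds STK3 and STK4, fell 3.13-fold, and DCHS1, a large cadherin gene, rose 3.38-fold at low levels, at 2.91 ± 0.92 CPM in shNEDD9 and 0.949 ± 0.56 CPM in shNTC (SD, n = 3 each). DCHS1 reached the level of the count filter in 3 shNEDD9 libraries and 1 shNTC library. AMOT reached it in 2 shNEDD9 and 3 shNTC libraries.

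**Figure D4:**
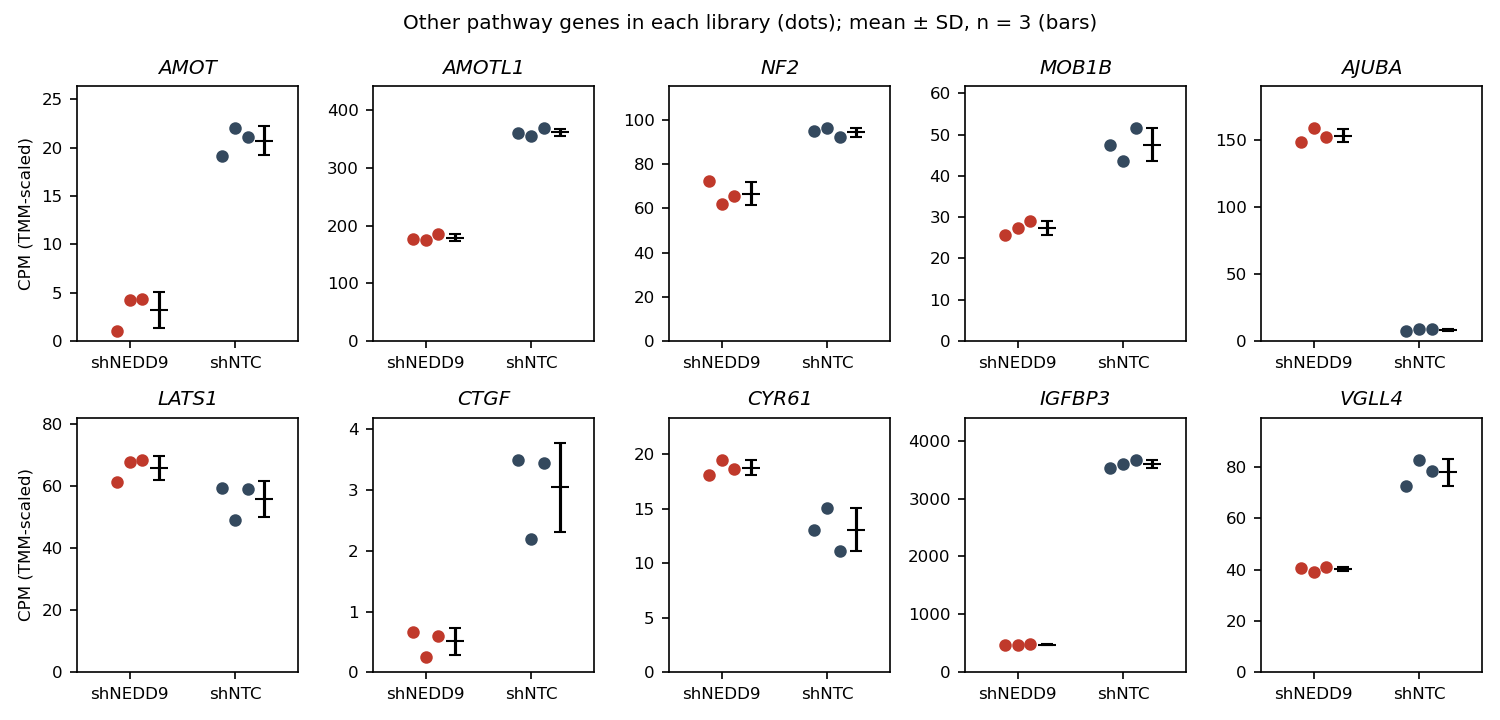
TMM-scaled CPM of 10 further genes of the pathway in the 3 shNEDD9 libraries (left of each panel) and the 3 shNTC libraries (right); dots are libraries, and the bars beside them give the mean ± SD (n = 3). AJUBA lies between 149 and 159 CPM in shNEDD9 and between 7.40 and 9.11 CPM in shNTC, and CTGF and CYR61 lie on opposite sides of their shNTC values.

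STRIPAK, a phosphatase complex that opposes STK3 and STK4, had all 16 of its listed genes tested. Of these 7 (43.8%) rose and 4 (25%) fell, where 35.5% of all tested genes rose and 35.9% fell. Their median log2 fold change was 0.09, and the largest change stayed within 2-fold. The 5 called genes that moved most were SLMAP, which links the complex to STK3 and STK4 (log2 fold change -0.71, SE 0.06), CTTNBP2NL (-0.68, SE 0.07), STK26 (0.50, SE 0.09), STRN (0.49, SE 0.08) and SIKE1 (0.42, SE 0.07).

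Of 18 listed nuclear partners of YAP1, TAZ and the TEADs, 12 were tested. Of these 5 (41.7%) rose and 4 (33.3%) fell, shares near the 35.5% higher and 35.9% lower of all tested genes (median log2 fold change 0.13). VGLL4, whose protein competes with YAP1 for the TEADs, had 40.2 ± 0.94 CPM in shNEDD9 and 77.8 ± 5.17 CPM in shNTC (SD, n = 3 each) (log2 fold change -0.93, SE 0.07, edgeR adjusted p = 1.24e-44). AP-1 factors share many enhancers with the TEADs. Their genes diverged, JUN being 2.19-fold higher, at 202 ± 4.57 CPM in shNEDD9 and 91.1 ± 4.49 CPM in shNTC, and FOSL2 4.12-fold lower, at 36.1 ± 1.84 CPM in shNEDD9 and 150.3 ± 2.93 CPM in shNTC (SD, n = 3 each). JUNB was 2.94-fold lower and TP73, a p53 family gene whose product YAP1 can bind, was 1.68-fold higher. VGLL1, VGLL2, VGLL3, RUNX3, FOSL1 and ZEB1 were too low to be tested.

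**Figure D5:**
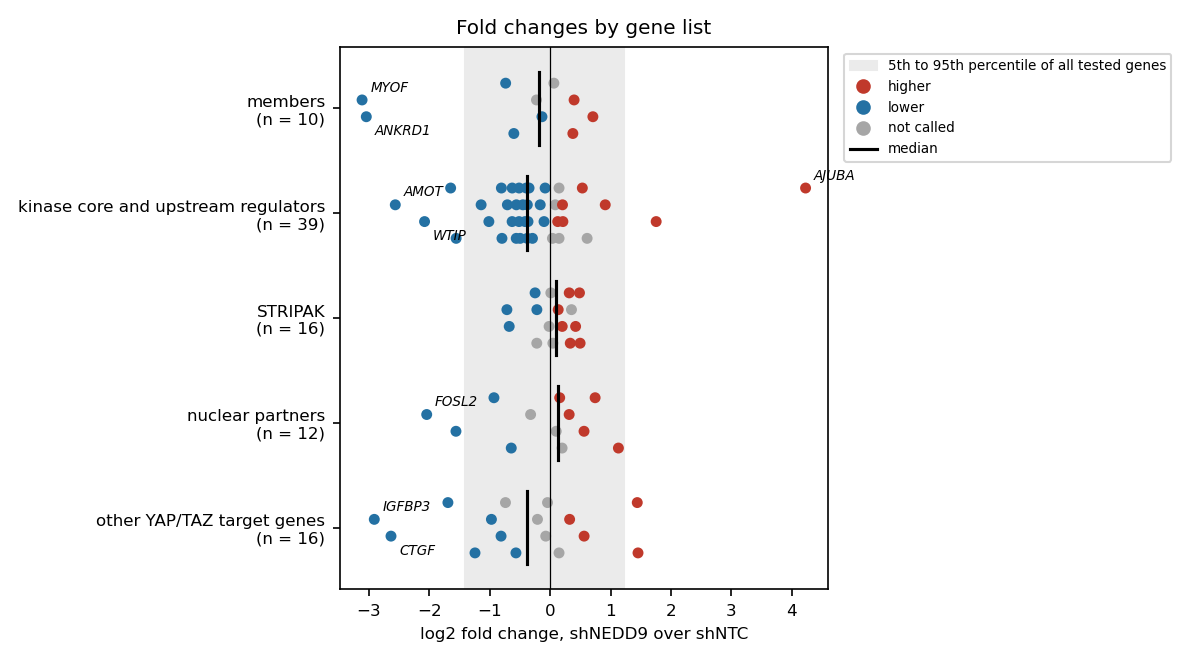
Log2 fold change, shNEDD9 over shNTC, of the members and of the tested genes of each list (dots, coloured by call; their height within a list carries no value), with the median of each list (black line) and the range from the 5th to the 95th percentile of all tested genes (grey, -1.42 to 1.22). MYOF, ANKRD1, AMOT, WTIP, FOSL2, IGFBP3 and CTGF are among the genes left of the range and AJUBA far right of it.

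Genes around the members on the chromosomes were read from the same fit, as the 5 tested genes on either side at any distance. Some were far off: JRKL ended at 96507574 on chromosome 11, where YAP1 started at 102110461. Among all tested genes 35.5% were higher and 35.9% lower, which stands beside the counts below. MYOF stood among genes that went both ways, with 4 of 10 higher and 6 lower, from -3.32 on the log2 scale for FFAR4 to 2.82 for LGI1. ANKRD1 had neighbours with smaller changes, between -0.31 and 1.53, of which 4 were lower and 3 higher. YAP1 rose beside 6 lower and 2 higher neighbours (median log2 fold change -0.40), among them MMP1, a collagenase gene, at -4.55. WWTR1 rose beside 4 lower and 2 higher neighbours (median -0.18), while TEAD3 and AMOTL2 fell beside neighbours with medians of 0.15 and 0.32. TEAD4 rose beside 6 higher and 2 lower neighbours, with a median of 0.44. Among the neighbours of TEAD1, TEAD2 and LATS2, 3, 5 and 3 were higher and 4, 4 and 2 were lower.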

How the data were processed

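The values are whole-number read counts per gene, deposited by the authors without normalisation. The submitters' processing notes name Subread 1.6.2, featureCounts, STAR 2.5.3a, cutadapt 1.9 and FastQC 0.11.5, and the builds hg19 and GRCh38 without their roles; the sources used here state neither the annotation nor the strand setting, so reads of overlapping genes may have been mixed or dropped. Libraries were made from total RNA with a stranded kit, per the labels' protocols. Coordinates and lengths are from GENCODE 29 (GRCh38), matched by identifier.

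Samples were grouped by title. Counts were tested with edgeR 4.0.16 (R 4.3.3; TMM, filterByExpr with a minimum count of 10, robust quasi-likelihood fit, no covariate), and p-values were adjusted by Benjamini-Hochberg over 13958 genes. SE is the absolute log2 fold change before moderation divided by the square root of F. 1 row without an identifier held no counts. Replicate pairs differed slightly beyond sampling noise (1.14 to 1.205 for chi-square per degree of freedom), and each library counted as 1 replicate. The members and lists were chosen with earlier results of these data known. The text names all members and a preset choice of pathway genes. From each list it also names the 5 called genes that moved most on the log2 scale and averaged at least 1 CPM. Neighbouring and marker genes, LIMD1, AXL, FOXF2, PTPN14 and TGFB2 were named after their values were seen. Protein sequences were not analysed here. Alternatives were other scaling factors, other count filters, DESeq2 1.42.0, limma-voom (limma 3.58.1), thinning, the replicate number as a block, coding length, and each library left out.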

Additional observations from a re-analysis of the deposited data

How the results depend on the processing

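Of 149 alternative values of the members' log2 fold changes, 147 kept their direction and side of the threshold. TEAD1 lost its call after thinning (log2 fold change -0.12), and TEAD2, not called in any alternative, ranged from -0.48 to 0.090 with 1 library left out, turning positive without shNTC replicate 3; for both the cause was not tested. TEAD2, CTGF, RBMS3 and DCHS1 did not pass the count filter after thinning and have no value there. The members called were 3 higher and 5 lower under every alternative except thinning, where 4 were lower. After thinning 3 genes of the kinase core and upstream list were higher, against 7 before. Per coding length the share differences (shNEDD9 minus shNTC) were 0.14 percentage points for TEAD1, -5.63 for TEAD3, 5.55 for TEAD4 and -2.26 for YAP1 within YAP1 and WWTR1. No scaling moved the median of all genes by 0.1 on the log2 scale. Same-numbered libraries hardly deviated together (correlations 0.00338 to 0.00645, although each was the highest for its library). Such deviations are mostly sampling noise, so these correlations cannot settle whether the replicate numbers pair the samples. With the replicate block 3 members were higher and 5 lower. Of all tested genes 4881 were higher and 4953 lower with it, against 4950 and 5014 without it. Depth limits ANKRD1, CTGF, RBMS3, DCHS1 and TEAD2, which have few counts.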
